A study of Homo sapiens with 120 samples.

Results

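Proliferative rafts given 2 nM gemcitabine were compared with proliferative rafts given saline in 16 RNA sequencing libraries, 8 per group, out of 120 in the series. All cells were CFPAC-1, an established human pancreatic ductal adenocarcinoma line, grown on microrafts, small releasable culture elements of an array. The libraries were chosen by 3 labels: the treatment (2 nM gemcitabine or saline), isolation on a microraft, and a score of proliferative. How the rafts were scored, how long they were treated and how many cells each held are not given in the labels, which state the cell number as unknown. The value analysed was taken to be FPKM (the table names no unit), the fragments assigned to a gene scaled by its length and by the library total, and a gene was counted as detected at an FPKM of 1 or more. Comparisons were made with all libraries of 1000 or more genes detected (7 with 2 nM gemcitabine, 7 with saline) and again with those whose Spearman rho with the mean bulk profile was 0.25 or more (6 with 2 nM, 7 with saline). These are called the wider and the narrower set. Untreated and 5 nM proliferative rafts and the nonproliferative rafts of the saline and 2 nM arms (8 libraries each) serve only as references. Rafts are numbered as in the labels, 31 to 38 for saline and 51 to 58 for 2 nM. Index pairs repeat between arms, so each arm was taken as its own library pool, and treatment and pool cannot be told apart.

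Gemcitabine is a deoxycytidine analog. It enters cells through nucleoside transporters such as SLC29A1, is phosphorylated first by deoxycytidine kinase (DCK) and then by CMPK1, and is inactivated by cytidine deaminase (CDA). Its diphosphate inhibits ribonucleotide reductase (RRM1 with RRM2 or RRM2B), and its triphosphate is built into DNA, where it stalls replication and can switch on checkpoint kinases such as CHEK1 and p53 targets such as CDKN1A.

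The rafts of both groups ranged from profiles like bulk RNA to profiles like blanks. In saline rafts the number of genes detected had a lowest value of 735, a median of 7166 and a highest of 10099. In 2 nM rafts it had a lowest value of 472, a median of 4683.5 and a highest of 10206. The groups overlapped over nearly their whole range. The mean was 5430 ± 3668 genes with 2 nM and 6591 ± 3232 with saline (SD, n = 8 each), a difference of -1161 genes (exact permutation p = 0.503, two-sided). The Spearman correlation with bulk averaged 0.474 ± 0.303 with 2 nM and 0.596 ± 0.239 with saline (SD, n = 8 each), a difference of -0.123 (exact permutation p = 0.375, two-sided). Both differences were smaller than the spread between rafts of a group.

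**Figure D1:**
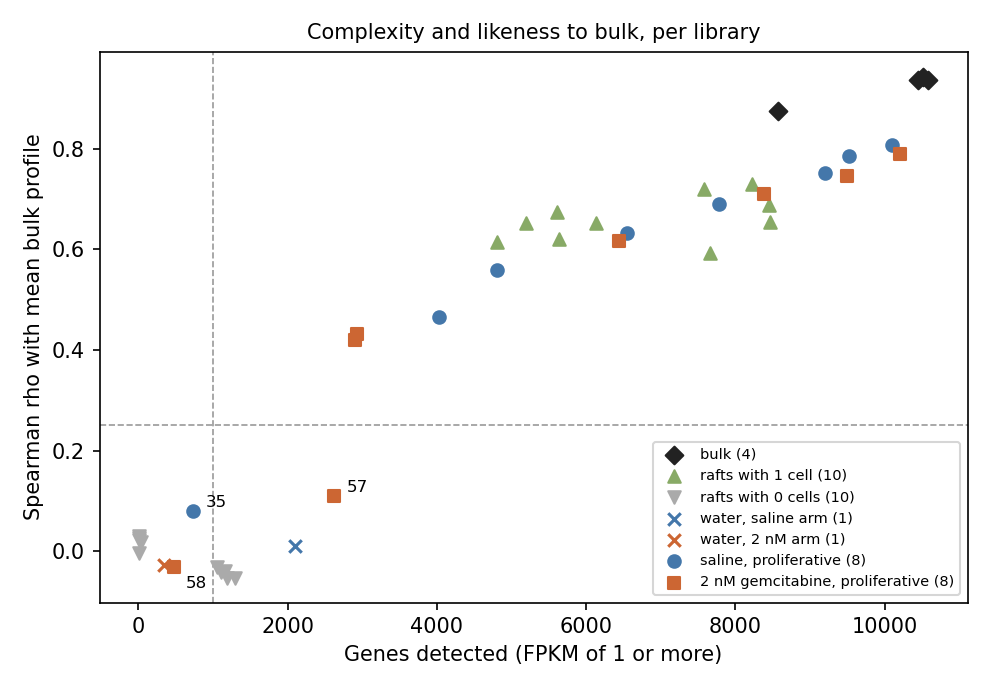
Each point is a library: its genes detected (x axis, FPKM of 1 or more) and its Spearman rho with the mean bulk profile (y axis), with dashed lines at 1000 genes and at a rho of 0.25. Most saline and 2 nM rafts lie between the blanks and bulk, with raft 35 (735 genes), raft 57 (2626 genes, rho 0.109) and raft 58 (472 genes) near the blanks.

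Saline raft 35 (735 genes, rho 0.08) and 2 nM raft 58 (472 genes, rho -0.031) were outside both sets. Raft 57 of the 2 nM group detected 2626 genes but had a rho of 0.109, and it is the single library by which the sets differ. The water library of the saline arm detected 2097 genes with a rho of 0.011, and that of the 2 nM arm 347 genes, so the number of genes alone did not set rafts apart from blanks. TMEM45A and PCSK5, which were abundant in blanks, stood at 166 and 260 in raft 57, at 4144 and 1640 in raft 58, and at no more than 10.7 and 9.47 in any library of the narrower set. Single cells on rafts in the isolation experiment detected 4804 to 8461 genes at a rho of 0.592 to 0.729. Of the 16 rafts 5 exceeded every such single cell in both measures: saline rafts 31, 32 and 34 and 2 nM rafts 53 and 56. The table holds no counts, so absolute depth is unknown. The spacing of the lowest values gave a relative depth for 12 rafts, from 0.59 to 1.41 times that of saline raft 34 in 5 rafts with 2 nM and from 0.81 to 1.46 in 7 with saline, which holds only if the spacing is that of single reads in each.

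Whole profiles were about as alike between the groups as within them. In the wider set Spearman rho averaged 0.389 between 2 nM rafts (0.046 to 0.754), 0.596 between saline rafts (0.416 to 0.837) and 0.487 between a raft of each group (0.039 to 0.823). Rafts of the same group were thus more alike than rafts of different groups by only 0.006 (exact permutation p = 0.703 over 3432 splits of the labels). In the narrower set the averages were 0.51, 0.597 and 0.556, and the excess within groups was 0.0044 (exact permutation p = 0.786 over 1716 splits).

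No gene passed an adjusted p of 0.05 in either set. In the wider set 0 of 10102 genes passed (0%), and the smallest Benjamini-Hochberg adjusted p of limma was 0.893. In the narrower set 0 of 9969 genes passed (0%), with a smallest adjusted p of 0.309, for FTH1. At an unadjusted p under 0.05 the wider set held 61 genes higher (0.604%) and 430 lower (4.26%) with 2 nM, and the narrower set 113 higher (1.13%) and 290 lower (2.91%). The split between higher and lower genes depended on the scaling and on which rafts were used. The median difference of all genes was -0.50 on the log2(FPKM + 1) scale in the wider and -0.25 in the narrower set. After quantile normalization, which gives all libraries the same distribution, the wider set held 250 higher and 257 lower genes. With only the rafts of 3000 or more genes (4 with 2 nM, 7 with saline) it held 295 higher and 94 lower, with a median of +0.28. The 95% interval of the difference reached 2.15 log2 units to either side for the median gene of the wider set and 2.08 in the narrower one. A difference smaller than the interval of a gene could not reach even an unadjusted p of 0.05. The adjusted threshold asked for larger differences still. The labels do not say whether the rafts of an arm were separate cultures, so each p covers raft-to-raft spread only, which may be technical.

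Genes whose 2 groups did not overlap were few and all lower with 2 nM. In the wider set 5 genes were lower in every 2 nM raft than in any saline raft (0.0495% of genes), and 0 were higher in every one (0%). The narrower set gave 5 lower (0.0502%) and 0 higher (0%), and these were the same genes: MRPL27, PTMA, SUMO3, TMEM126A and ISCA2. They were named here after their values were seen. The narrower set is a part of the wider one, so genes apart in the wider set had to recur in it. For a gene without tied values, 1 of the 1716 splits of the narrower set's labels gives such a separation in each direction. Among 9969 genes some would therefore separate by chance. The count of 5 was not tested against that. PTMA encodes prothymosin alpha, an abundant nuclear protein of dividing cells. Its FPKM had a lowest value of 2239, a median of 2547 and a highest of 3922 in 7 saline rafts, against 1015, 1808 and 2077 in 6 rafts of the 2 nM group. The difference in the narrower set was -0.68 ± 0.18 (limma estimate and standard error, unadjusted p = 0.00078, adjusted p = 0.999). SUMO3, a small ubiquitin-like modifier, ranged from 85.8 to 168 with saline and from 18.01 to 82.04 with 2 nM. TMEM126A and ISCA2, which act in assembly of mitochondrial complex I and of iron-sulfur clusters, and MRPL27, a mitochondrial ribosomal protein, were each at 0 in 1 or more 2 nM rafts of the narrower set and at 68.5 or more in every saline raft of it. PTMA has many processed pseudogenes that can share its reads.

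The gemcitabine pathway was measured in most rafts, and none of its 22 tested genes passed. Among uptake and activation genes SLC29A1 and DCK averaged lower with 2 nM, and the transporter SLC29A2 averaged higher (0.61 ± 0.71 in the wider and 0.80 ± 0.76 in the narrower set). SLC29A1, the equilibrative transporter, was listed at 0 in 1 of 7 saline rafts and stood between 10.7 and 176 in the others, while it was at 0 in rafts 51, 52, 54 and 57 and between 57.1 and 118 in rafts 53, 55 and 56. Its difference in the narrower set was -1.92 ± 1.42 (95% interval -4.84 to 0.99). DCK, the first and rate-limiting kinase for the drug, was listed at 0 in saline raft 38 and between 22.5 and 86.7 in the other 6. With 2 nM it was at 0 in rafts 52, 54 and 57 and stood at 20.6, 5.83, 8.38 and 27.6 in rafts 51, 53, 55 and 56. The DCK difference was -2.22 ± 1.24 in the wider and -1.86 ± 1.20 in the narrower set (limma, adjusted p = 0.893 and 0.999). The 3 rafts of the 2 nM group at 0 for both transcripts are those with fewer than 3000 genes detected. CMPK1, the next kinase, was detected in all 7 saline rafts (26.9 to 140) and in 6 of 7 rafts with 2 nM (39.3 to 103), and differed by 0.22 ± 0.76 in the narrower set and by -0.65 ± 1.20 in the wider.

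CDA, which deaminates gemcitabine to an inactive product, averaged higher with 2 nM. Its FPKM in saline rafts 31, 32, 33, 34, 36, 37 and 38 was 98.1, 228, 106, 52.1, 24.3, 163 and 0. In 2 nM rafts 51 to 56 it was 630, 359, 275, 518, 175 and 162, and in raft 57 it was 0. Of the 6 rafts of the narrower set, 4 exceeded every saline raft, and the 2 others lay above all saline rafts but 1 or 2. The CDA difference was 2.72 ± 0.94 in the narrower set (95% interval 0.79 to 4.66, limma unadjusted p = 0.00763, adjusted p = 0.999) and 1.54 ± 1.28 in the wider set (adjusted p = 0.896). Raft 57 and saline raft 38 were the rafts without CDA. DCTD, deoxycytidylate deaminase, ranged from 18.2 to 280 with saline and from 78.02 to 430 in the 6 rafts with 2 nM (1.10 ± 0.75, and 0.10 ± 1.20 with raft 57). NT5E, an ecto-nucleotidase, was detected in 6 of 7 saline rafts and in 2 of 7 with 2 nM. It met the filter of 4 libraries through the saline group alone, a pattern the filter selects, so no estimate is given for it.

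None of the drug's targets passed. RRM1, the large subunit of ribonucleotide reductase, differed by -0.27 ± 1.18 in the narrower set. RRM2, the subunit made in S phase, ranged from 0 to 71.9 with saline and from 0 to 203 with 2 nM (1.36 ± 1.32). RRM2B, the subunit controlled by p53, was at most 4.24 with saline and at most 2.88 with 2 nM, except in raft 52 (36.3). TYMS, thymidylate synthase, differed by -0.25 ± 1.37, and TK1, thymidine kinase, by 1.08 ± 0.71, or by -0.19 ± 1.14 in the wider set. Over the 22 tested members of the list, 15 lay below 0 and 7 above in the narrower set, with a median of -0.39 beside -0.25 for all genes. With only rafts of 3000 or more genes that median was +0.21 beside +0.28 for all genes. The sign of the list thus turned with that of all genes, and the list lay below all genes in both. CDA was the only member higher and NME2, a nucleoside diphosphate kinase, the only one lower at an unadjusted p under 0.05 (-0.53 ± 0.19, p = 0.0105).

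**Figure D2:**
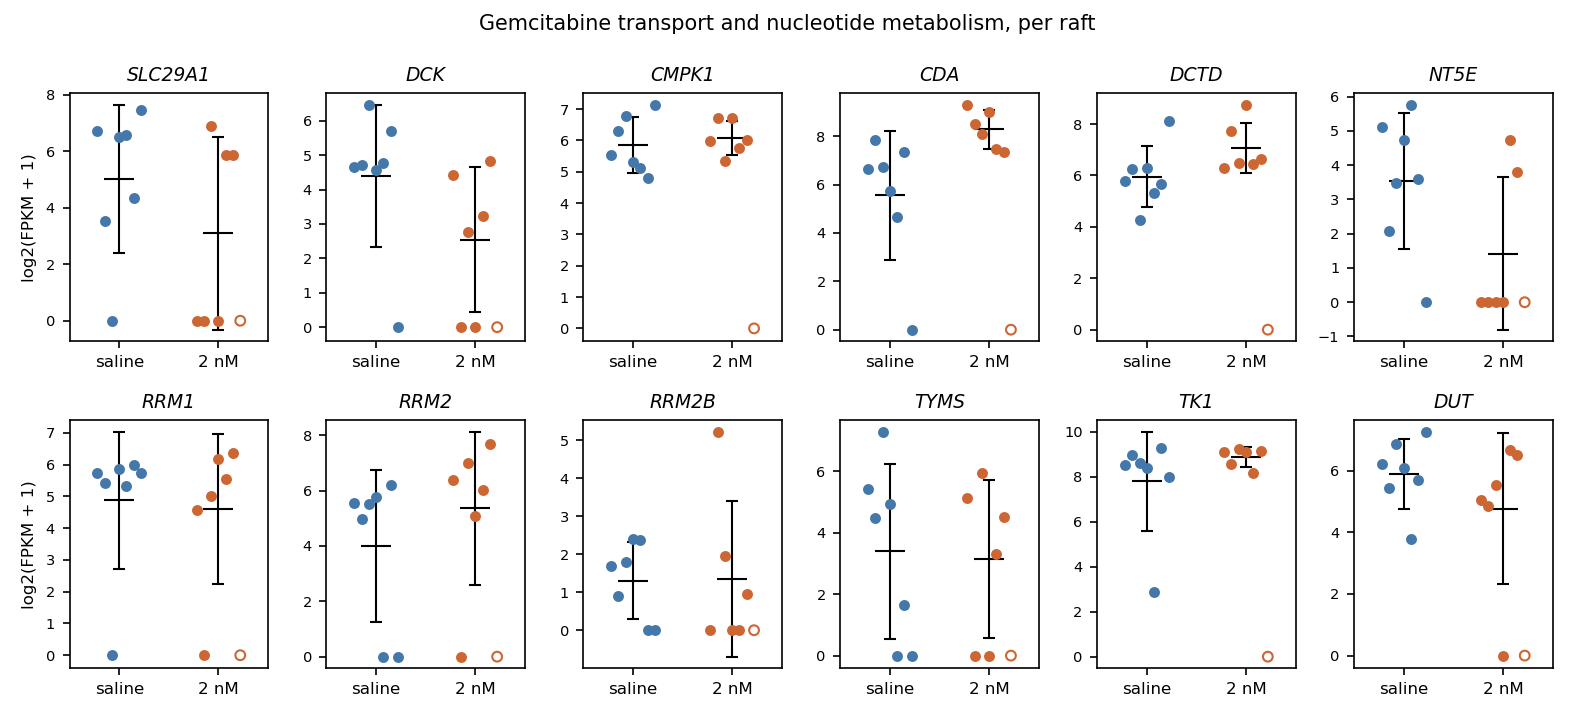
Each panel is a gene, with log2(FPKM + 1) per raft of the wider set on the y axis. Filled points are rafts of the narrower set, the open point is raft 57, and bars give mean and SD of the filled points. CDA in the 6 filled 2 nM rafts lies at the upper end of the saline range or above it and is at 0 in raft 57, while DCK, SLC29A1 and NT5E are at 0 in several 2 nM rafts.

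Proliferation genes overlapped between the groups, and most averaged lower with 2 nM. MKI67, which marks cycling cells, was detected in 4 of 7 saline rafts (5.56 to 28.2) and in 3 of 7 with 2 nM (3.48 to 18.1), and in 7 of 10 single cells of the isolation experiment. MKI67 was thus not found in every raft labelled proliferative, in either group. TOP2A, topoisomerase II alpha, had a median of 60.3 and a highest value of 100 with saline, against 7.19 and 78.1 with 2 nM in the wider set (-2.28 ± 1.32, limma adjusted p = 0.893). CCNB1, the mitotic cyclin, was detected in 7 of 7 saline rafts (78.8 to 726) and in 6 of 7 with 2 nM (87.03 to 305), and differed by -0.81 ± 0.58 in the narrower set. CDK1, its kinase, differed there by -1.32 ± 1.35 and PCNA, the replication clamp, by 0.06 ± 1.08.

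Among the lists, G2/M, a large one, held the most members at an unadjusted p under 0.05 by count, but not by share. In the narrower set 4 of 31 proteasome genes were lower at that level and 0 higher. Of 12 immediate early genes 1 was higher and 2 were lower. Of the 56 tested G2/M genes 0 passed the adjusted threshold and 46 lay below 0 in the narrower set, where 6093 of all 9969 genes did. There 5 were lower at an unadjusted p under 0.05, where all genes gave 2.91%. These were AURKA, PLK1 and UBE2C, which drive mitotic entry and exit, the kinesin KIF2C and the tubulin TUBB4B. AURKA ranged from 19.3 to 201 in the 7 saline rafts and stood at 56.5, 104 and 58.8 in 2 nM rafts 51, 53 and 56, and at 0 in the other 4. AURKA and KIF2C, each detected in 3 rafts with 2 nM of the narrower set, met the filter through the saline group alone. The filter selects that pattern, so no estimate is given for them. PLK1 was detected in 6 of 7 saline rafts (56.1 to 438) and in 4 of 7 with 2 nM (9.89 to 81.6). The list's median was -1.03 in the wider and -0.75 in the narrower set, beside -0.50 and -0.25 for all genes. It was -0.57 and -0.52 after quantile normalization. With only rafts of 3000 or more genes it was -0.17 beside +0.28 for all genes. The G1/S list (47 tested genes) had a median of -0.41 in the narrower set, beside -0.25 for all genes. With only rafts of 3000 or more genes the median was +0.97 beside +0.28, so the list's direction depended on which rafts were used. Of the 15 tested histone genes 12 lay below 0, where 6093 of all 9969 genes did. Their median was -0.70 beside -0.25 for all genes, and -0.37 after quantile normalization. With only rafts of 3000 or more genes it was -0.10 beside +0.28 for all genes.

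Targets of p53 gave no common direction. CDKN1A, the CDK inhibitor p21, ranged from 34.1 to 80.3 in 6 saline rafts with 0 in raft 38, and from 46.4 to 219 in 6 rafts with 2 nM with 0 in raft 57. It differed by 1.49 ± 0.99 in the narrower set and by 0.59 ± 1.28 in the wider set (limma adjusted p = 0.999 and 0.953). MDM2, which degrades p53, was at most 13.1 in either group and differed by 0.14 ± 0.90. GDF15, a secreted stress cytokine, was listed at 0 in all 7 saline rafts and in 5 of the rafts with 2 nM, and stood at 340 and 102 in rafts 53 and 56, and it was detected in too few libraries to be tested. Of the 21 tested targets 10 lay above 0 and 11 below in the narrower set, and 0 were past an unadjusted p of 0.05. Their median there was -0.11 beside -0.25 for all genes. With only rafts of 3000 or more genes it was +0.67 beside +0.28 for all genes. PLK2 was lower in the wider set at an unadjusted p of 0.0336 (-2.69 ± 1.24).

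Checkpoint and repair genes were sparse. CHEK1, the kinase that answers stalled forks, was detected in 5 of 7 saline rafts and 4 of 7 rafts with 2 nM, and differed by 0.61 ± 1.23 in the narrower set. H2AFX, the histone phosphorylated at DNA breaks, differed in mRNA by -1.61 ± 1.10. Of the 32 tested genes of that list 11 lay above 0 and 21 below in the narrower set, with a median of -0.19 beside -0.25 for all genes. That median was +0.05 after quantile normalization, and +0.70 with only rafts of 3000 or more genes, beside +0.28 for all genes. No member was past an unadjusted p of 0.05 there.

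**Figure D3:**
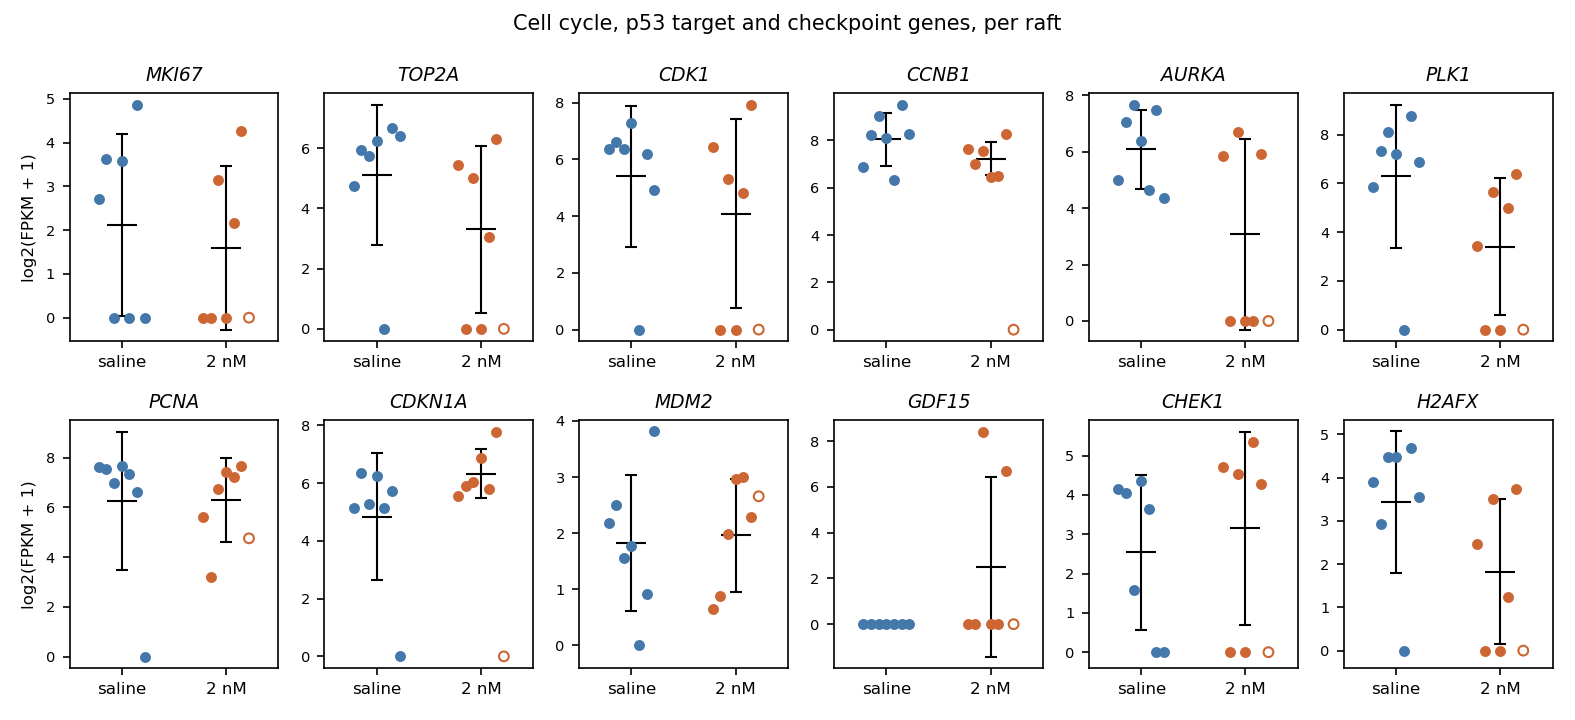
Each panel is a cell cycle, p53 target or checkpoint gene, with log2(FPKM + 1) per raft of the wider set. Filled points are rafts of the narrower set, the open point is raft 57, and bars give mean and SD of the filled points. Saline and 2 nM rafts overlap in every panel, and many genes are at 0 in the 2 nM rafts of fewest genes.

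Among the genes with the smallest p, FTH1 stood first in the narrower set. FTH1 encodes the heavy chain of ferritin, which stores iron, and gave the largest FPKM of many rafts. It was 21420, 46454, 25025, 24110, 21791, 26315 and 36637 in saline rafts 31, 32, 33, 34, 36, 37 and 38. In 2 nM rafts 51 to 56 it was 100140, 54867, 60678, 56530, 26554 and 46598. Of these, 5 exceeded every saline raft, and raft 55 lay within the saline range. The FTH1 difference was 0.95 ± 0.19 (95% interval 0.56 to 1.33, limma unadjusted p = 3.1e-05, adjusted p = 0.309). In raft 57 FTH1 was 4988, and with that raft the difference was 0.46 ± 0.31 (adjusted p = 0.893). Without saline raft 32 or 2 nM raft 55 FTH1 passed (limma adjusted p = 0.0126 and 0.000342). Raft 32 held the highest FTH1 of the saline rafts and raft 55 the lowest of 2 nM rafts 51 to 56. All these errors and p-values rest on limma's variance trend. Without that trend 0 of 9969 genes passed in the narrower set, and the fits leaving out a raft were not run without it. In the wider set the sign of the FTH1 difference turned after quantile normalization (-0.12). That step gives the highest gene of each library the same value. FTH1 was the highest gene of 2 nM rafts 51 to 56 and of saline rafts 31, 32 and 36, so the step makes it equal in those rafts. In the narrower set the FTH1 difference stayed above 0 under every alternative run, at 0.38 or more. FTH1 has many processed pseudogenes, so its reads may be shared with them.

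Other genes of small p were detected with 2 nM and hardly with saline. Genes at 0 in one group entered the test only by being detected in 4 or more rafts of the other, so this pattern is what the filter selects and no estimate is given for those at 0 throughout a group. TMEM125, a transmembrane protein, was at 0 in all 7 saline rafts and at 33.6, 17.1, 62.9, 11.04 and 19.1 in rafts 51, 53, 54, 55 and 57. UPK3B, a uroplakin, was at 2.15 in saline raft 34 and 0 in the other 6, and between 7.46 and 56.5 in 5 of 6 rafts with 2 nM. It too met the filter through the 2 nM group alone. CDC2L1, a cyclin-dependent kinase with a near-identical neighbour that may share its reads, was at 0 in every saline raft and detected in 4 with 2 nM. SKAP1, an adaptor protein of T cell signalling, showed the same split with values from 2.21 to 293 in 4 rafts. AACS, acetoacetyl-CoA synthetase, was detected in 3 of 7 saline rafts and 6 of 7 with 2 nM, with its highest value, 333, in raft 57. C9orf85 was at most 1.51 with saline and between 8.94 and 24.1 in 5 rafts with 2 nM. UPK3B was also detected in 5 of 10 untreated single cells of the isolation experiment.

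Genes lower with 2 nM included VIM and COMMD1. VIM, the intermediate filament vimentin, was detected in all 7 saline rafts, with a lowest value of 155, a median of 339 and a highest of 607. With 2 nM it was at 0 in rafts 52 and 54 and stood at 53.6, 57.7, 90.1, 472 and 15.95 in rafts 51, 53, 55, 56 and 57. Raft 56 alone reached the saline range. The VIM difference was -3.95 ± 1.10 in the narrower set (95% interval -6.21 to -1.70, unadjusted p = 0.00131, adjusted p = 0.999). COMMD1, a regulator of copper handling and NF-kB, ranged from 35.3 to 235 in 7 of 7 saline rafts. With 2 nM it was detected only in rafts 51 (107) and 56 (28.1). CBR3, a carbonyl reductase, was detected in 7 of 7 saline rafts and 2 of 7 with 2 nM. COMMD1 and CBR3 met the filter through the saline group alone, a pattern the filter selects, so no estimate is given for them. TGFB1I1, a focal adhesion adaptor, and GNB1L were at 0 in every raft with 2 nM and detected in 6 and 5 of 7 saline rafts, and they entered the test through the saline group alone. DRAP1, a transcriptional corepressor, ranged from 562 to 882 with saline and from 40.8 to 704 in 6 rafts with 2 nM (-2.002 ± 0.54). UCA1, a long noncoding RNA, was named after its values were seen: it ranged from 492 to 1273 with saline and from 1150 to 4791 in 6 rafts with 2 nM (1.35 ± 0.31, adjusted p = 0.752). It was at 0 in raft 57, and with that raft the UCA1 difference was -0.20 ± 1.00.

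**Figure D4:**
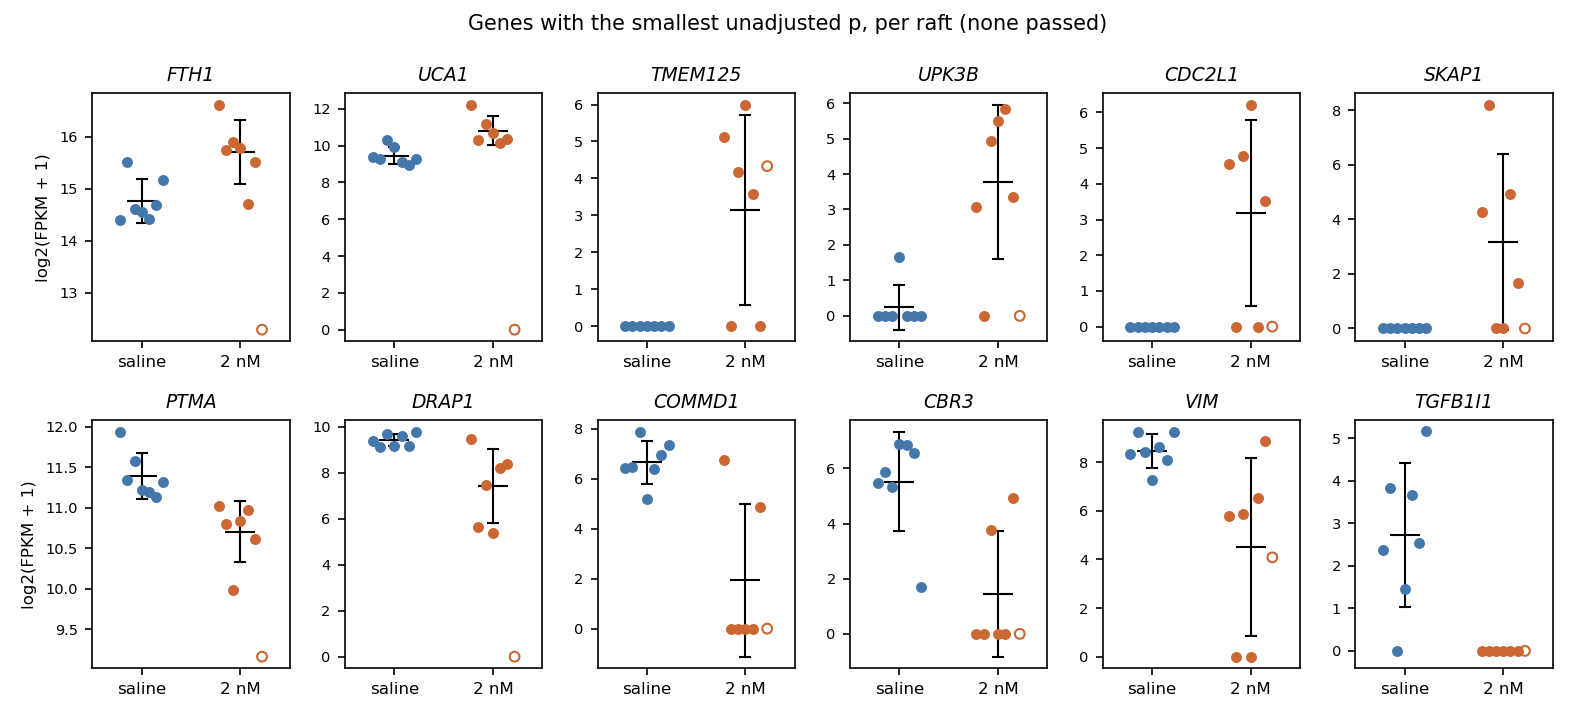
Each panel is a gene among those with the smallest unadjusted p, with log2(FPKM + 1) per raft of the wider set. Filled points are rafts of the narrower set, the open point is raft 57, and bars give mean and SD of the filled points. FTH1 and UCA1 sit mostly above the saline range, and COMMD1, CBR3 and VIM are at 0 in some 2 nM rafts, but no gene passed an adjusted p of 0.05.

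Of the other gene groups, cholesterol synthesis had the highest median and the mesenchymal list the lowest in the narrower set. Of 17 tested cholesterol synthesis genes 0 passed. In the narrower set 13 lay above 0, where 3876 of all 9969 genes did, and the median was 0.59 beside -0.25 for all genes. FDFT1, squalene synthase, ranged from 0 to 107 with saline and from 107 to 442 in 6 rafts with 2 nM (2.59 ± 0.94, limma unadjusted p = 0.0102, adjusted p = 0.999), and with raft 57 the difference was 1.48 ± 1.28 (p = 0.253). ACAT2 ranged from 0 to 138 with saline and from 104 to 669 in those 6 rafts (2.19 ± 0.94, and 1.08 ± 1.28 with raft 57). The cholesterol median was also above 0 in the wider set (0.32) and after quantile normalization (0.64 and 0.72). With rafts of 3000 or more genes it was 1.37, beside 0.28 for all genes. Of 7 tested mesenchymal genes 6 lay below 0 in the narrower set, where 6093 of all 9969 genes did. Their median was -1.13 beside -0.25 for all genes. With rafts of 3000 or more genes the mesenchymal median was -0.53, beside 0.28 for all genes. Besides VIM the genes below 0 included AXL (-1.89 ± 1.10), CDH2 (-1.13 ± 1.02) and ZEB1 (-1.45 ± 0.92), while SNAI2 stood at 1.76 ± 1.27.

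Ribosomal protein genes depended on raft 57. In the narrower set 56 of 68 tested members lay above 0, where 3876 of all 9969 genes did. Their median was 0.17 beside -0.25 for all genes. There 4 members, among them RPS6, RPS18 and RPL23A, were higher at an unadjusted p under 0.05, where all genes gave 1.13%. With raft 57 the median was -0.39 beside -0.50 for all genes, and 21 lay above 0, where 3058 of all 10102 genes did. With rafts of 3000 or more genes the median was -0.04 beside +0.28 for all genes. Oxidative phosphorylation went from -1.12 with raft 57 to -0.02 without it. Epithelial and ductal genes had medians of 0.18 and 0.02 in the 2 sets. S100P and TFF1, secreted or calcium-binding proteins of ductal tumours, were higher at an unadjusted p under 0.05 in both sets, each with 0 in 2 or more rafts with 2 nM. In the narrower set S100P was detected in 4 rafts with 2 nM and 3 with saline. TFF1 was detected there in 4 with 2 nM and 1 with saline. Both met the filter through the 2 nM group alone, a pattern the filter selects. In the narrower set 13 of the 26 tested members lay above 0 and 13 below, the latter including AGR2 (-2.17 ± 1.27), SPINT2 (-2.15 ± 1.54), ST14 (-1.62 ± 1.35), SPINT1 (-1.13 ± 1.25) and CDH1 (-1.11 ± 1.17). Of 27 tested interferon-stimulated genes 11 lay above 0 in the narrower set, where 3876 of all 9969 genes did. Among the 27, IFI27 averaged higher (1.63 ± 0.62). IFI44 and IFIT5 averaged lower, but both met the filter through the saline group alone, a pattern the filter selects, so no estimate is given for them. None of the lists held a gene that passed.

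**Figure D5:**
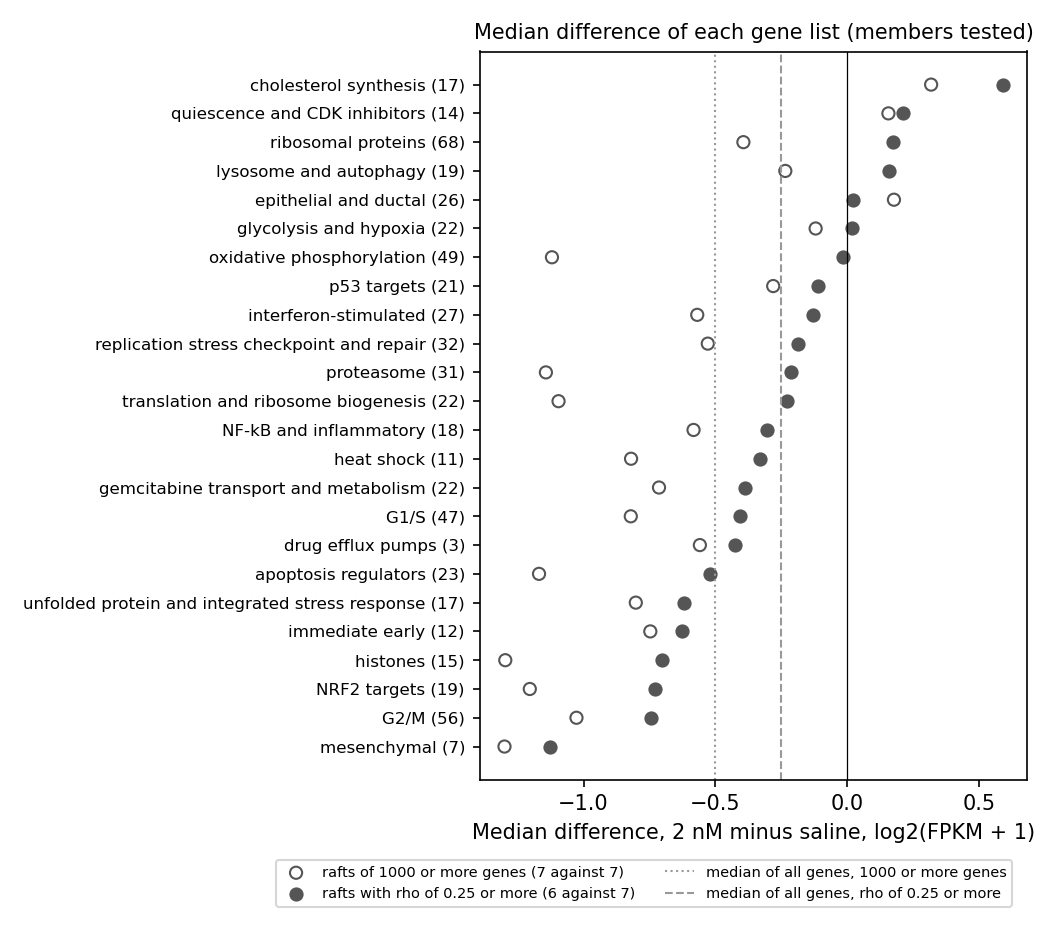
Each row is a gene list with its number of tested members, and points give the median difference of its members, 2 nM minus saline, on the log2(FPKM + 1) scale. Open points are the wider set, filled points the narrower set, and the vertical dotted and dashed lines are the medians of all genes, -0.50 and -0.25. Cholesterol synthesis lies farthest right (0.59) and the mesenchymal list farthest left (-1.13) among the filled points.

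The rafts carried epithelial markers. KRT7, KRT8 and KRT18 were detected in all 14 rafts of the wider set, and the summed FPKM of 11 epithelial and ductal markers ran from 3228 to 8462 with 2 nM and from 2456 to 4895 with saline. EPCAM was detected in 5 and 6 of 7 rafts. CFTR was at 0 in all 14. Of 6 blood markers 0 were tested, and their sum was 0 in every raft with 2 nM and at most 17.6 with saline. PECAM1, VWF and CDH5 of endothelium, and COL1A2, DCN, LUM and PDGFRB of fibroblasts, were at 0 throughout. COL1A1 of fibroblasts was at most 1.65, in 2 rafts with 2 nM and 1 with saline. Of 8 keratinocyte markers KRT10 and DMKN were detected in 7 of 7 saline rafts (133 to 196 and 30.6 to 335) and in 6 of 7 with 2 nM, KRT5 in 1 raft with 2 nM (1.80), and KRT1, KRT2, KRT14, KRTDAP and LOR in none. A raft with fewer cells and cells with less RNA cannot be told apart in these values.

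Against untreated proliferative rafts (5 in the wider, 4 in the narrower set), 0 of 8084 genes passed in the wider set (0%). Of the narrower set 12 of 7580 passed (0.158%), 11 higher and 1 lower with 2 nM, but 0 did when limma was run without a variance trend (0%). All genes leaned the same way, with a median of 0.84, 5691 above 0 and 1889 below, and 2 of the 4 untreated rafts had only 1495 and 1525 genes detected. The 12 genes included FTH1, RPS6 and ANXA1, an annexin, with differences of 0.77 ± 0.06, 3.47 ± 0.66 and 4.08 ± 0.88. The fitted error of FTH1 was far below the spread of its values (log2 level 15.7 ± 0.62, SD, n = 6, against 14.9 ± 1.09, n = 4). CDA stood between 0 and 475 in the 4 untreated rafts. The comparisons with saline and with untreated rafts share the 2 nM rafts.

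At 5 nM, proliferative rafts (7 in the wider, 5 in the narrower set) gave 0 of 9656 genes past the threshold against 2 nM in the wider set (0%). In the narrower set 11 of 9092 genes passed (0.121%), all lower at 5 nM, among them RPS2, TUBA1B and KRT18. Without a variance trend 2 passed (0.022%), C10orf10 and PPDPF, both higher at 5 nM and neither among the 11. CDA was 2.24 at the median of the 7 rafts with 5 nM, against 275 with 2 nM and 98.1 with saline, and between 5 nM and 2 nM it differed by -3.90 ± 1.34 in the narrower set (limma adjusted p = 0.491). GDF15 was detected in 3 of 7 rafts with 5 nM, 2 of 7 with 2 nM, and in 0 of 7 with saline. The median of CDKN1A was 207, 58.3 and 38.2 in that order, but its fitted 5 nM minus 2 nM difference was -0.48 ± 1.83 in the wider and 0.59 ± 1.32 in the narrower set. None of these 3 genes passed between 5 nM and 2 nM.

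Nonproliferative rafts (7 with saline and 7 with 2 nM in the wider set, 4 and 3 in the narrower) served to test whether the 2 nM difference depended on the proliferation score. The interaction passed for 0 of 12309 genes in the wider (0%) and 0 of 11249 in the narrower set (0%), where the smallest adjusted p was 0.128 and 222 higher and 241 lower genes had an unadjusted p under 0.05. For CDA the interaction was 2.57 ± 1.64 and for VIM 0.25 ± 2.03 in the narrower set (limma adjusted p = 0.991 and 0.997).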

How the data were processed

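CFPAC-1 RNA was made into libraries with the SMARTer and Nextera XT kits, per the labels. Per the submitters' processing notes the authors used RSEM and hg19, and they deposited 1 table of FPKM values (30504 rows, 120 columns, all mapped to samples). Neither the table's header nor the labels name the unit. It was taken as FPKM because the values are decimals, never negative, with totals that differ between libraries, so the scale was inferred. Column totals of the 16 rafts ran from 419980 to 785500, and no read counts were at hand, so no counting intervals could be given.

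A gene was detected at an FPKM of 1 or more. The Spearman correlation with bulk was computed over 10767 genes with a mean FPKM of 1 or more in the 4 bulk libraries. log2(FPKM + 1) was compared with limma 3.58.1 (trended prior variance, two-sided, Benjamini-Hochberg over all genes tested, threshold 0.05) in R 4.3.3, over genes detected in at least 4 libraries of the set, without a filter on direction. A fold on this scale understates the change of low genes. Values ± errors of differences are limma estimates and standard errors. Single values per library were compared by exact permutation. Python 3.11.15, pandas 2.3.3, numpy 2.4.6 and scipy 1.17.1 were used. The fit was also run on simulated data, with every gene raised well above 0 and its values shuffled between libraries. That run does not cover genes at 0 or differences in complexity between whole libraries.

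The groups compared and the 30 gene lists were chosen with earlier results of these data known. Genes were named by a rule: the 10 higher and 10 lower passing genes of largest change in each set, filled to 5 per direction by smallest p where fewer passed, detected in a share of at least 0.5 of the libraries of the higher group, plus 18 genes of drug metabolism and cell cycle whatever their p. List members named for an unadjusted p under 0.05, markers, UCA1, the genes of non-overlapping groups and those passing only under an alternative were chosen after their values were seen. Repeated names, pseudogenes and names matching no coding gene of RefSeq GRCh38.p14 were skipped. Some list members are not reported here by name.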

Additional observations from a re-analysis of the deposited data

Results flagged for a closer look

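In groups of 4 to 10 libraries the lowest or highest value was set against the others by Dixon's test at its 95% level. For normally distributed values chance passes it in about 1 of 20 groups. Many flagged gene values were a single 0 beside rafts that expressed the gene, so that rate need not hold for them. Of 68 groups of values examined (genes detected, rho, total FPKM and the tested named genes, in each treatment) 18 held a library far from the others.

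Saline raft 35 stood apart from the other saline rafts in rho with bulk (0.08) and in total FPKM (566758).

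In the 2 nM group of the wider set, raft 57 was at a log2(FPKM + 1) of 0 for DRAP1, CCNB1, CDKN1A, CDA and CMPK1, all of which the other 6 rafts expressed. Raft 52 was the single high raft for RRM2B, at 5.22 on that scale.

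In the saline group, raft 38 was at 0 for PCNA, CDKN1A, DCK and CDA and at 1.69 for CBR3. Raft 36 was at 0 for TOP2A, CDK1 and H2AFX, and raft 33 at 0 for RRM1. UPK3B was found in raft 34 alone of the saline rafts, at 1.66.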

How the results depend on the processing

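The count of genes passing was 0 in the wider set under all 28 alternatives run: other pseudocounts (0.1 and 10), other gene filters, quantile normalization, rescaling each library to the same total, genes detected as a covariate, library weights, more groups in the fit, all 16 libraries, 3000 or more genes, each library left out and, added after seeing the data, limma without a trend and genes detected in every library. In the narrower set it was 0 under 25 of 28, and leaving out 1 library gave 0 to 1: FTH1 without saline raft 32 or 2 nM raft 55, and the unplaced transcript DQ585569 (lower) without 2 nM raft 51. Sets at a rho of 0.4 and 0.1 hold the same libraries as the narrower and the wider set. With rho-selected libraries the count went from 0 to 12 against untreated rafts and from 0 to 11 for 5 nM against 2 nM, and without a trend to 0 and 2. The differences in genes detected and in rho kept their direction and did not pass under any alternative, and neither did profile likeness. Over the named genes tested in each set (62 results), 42 had the same sign under every alternative and 20 did not, among them PCNA, RRM2B, TYMS and CHEK1. FTH1 ranged from 0.38 to 1.15 in the narrower set and from -0.12 to 0.95 in the wider. No paired analysis was possible because the 2 groups share no replicate number in the labels.

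For the median gene the 95% interval reached 2.15 (wider) and 2.08 (narrower) log2 units to either side. A difference smaller than a gene's own interval could not reach an unadjusted p of 0.05, and passing the adjusted threshold took a larger one. Genes detected in every library were measured more closely: their median half-width was 0.85 over 989 genes of the narrower set, with 29 higher and 35 lower at an unadjusted p under 0.05 and 0 passing.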

Other observations

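Several single list members were detected in more rafts of one group than of the other. They were chosen after their values were seen, and none passed. ZFP36, which destabilises inflammatory mRNAs, was at 4.20 in saline raft 38 and at 0 in the other 6 saline rafts, and between 5.00 and 77.4 in 5 of 7 rafts with 2 nM. PDK1, a kinase that holds back pyruvate dehydrogenase, was at 1.39 in saline raft 32 alone and between 2.88 and 161 in 4 rafts with 2 nM. Both met the filter of 4 libraries through the 2 nM group alone, a pattern the filter selects, so no estimate is given for them. BIK, a pro-apoptotic BCL2 family member, ranged from 129 to 263 in all 7 saline rafts and was at 0 in 3 of 7 rafts with 2 nM (-3.01 ± 1.11 in the narrower set). HIST1H4C, a replication-dependent histone, ranged from 6.58 to 1095 with saline and was at 0 in 3 of 7 rafts with 2 nM (-2.67 ± 1.35 in the narrower set).

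The tubulins TUBB and TUBA1B were detected in every raft of the wider set. Over the narrower set they averaged lower with 2 nM by -1.16 ± 0.43 and -1.01 ± 0.42 (adjusted p = 0.999 for both), but TUBA1B was highest of all in 2 nM raft 51, at 2792, and TUBB in 2 nM raft 57, at 2382.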
